A study of Mus musculus with 15 samples.

Results

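The tumour necrosis factor (TNF) ligand and receptor superfamilies were followed in RNA of mouse alveolar macrophages, phagocytes that live in the air spaces of the lung. Members were taken by gene symbol: every array probe whose single platform symbol was a numbered Tnfsf (ligand) or Tnfrsf (receptor) gene, together with Tnf, Lta, Ltb, Fasl, Cd40lg, Cd70, Fas, Ltbr, Cd40, Cd27 and Ngfr. This gave 40 probes for 39 genes, 15 ligands and 24 receptors, of 12909 genes with a symbol in all. A test required a value on 3 or more arrays in each group, which 34 of the 39 genes had (14 ligands and 20 receptors), among 13273 features tested in all.

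RNA was hybridised on 15 spotted 2-colour oligonucleotide arrays, each against a common reference labelled as macrophage RNA, in 3 groups of 5. The first group, b6-/-TGFb+/+Dox, is described as mice deficient in the integrin subunit beta6 and reconstituted with TGF-b1. It is called beta6 null with TGFb1 here. The second, b6-/-Dox, is beta6 null without TGFb1, and the third, b6+/+Dox, is wild type for beta6. Doxycycline, a drug that turns inducible transgenes on or off, had been given in all 3 groups. The labels give no age, sex, strain or promoter of the transgene, and do not say whether an array holds 1 animal or a pool. The p-values therefore reflect the spread among these arrays, part or all of which may be technical. Wild type mice with TGFb1 were not analysed here, so a return towards wild type cannot be told apart from a separate effect of TGFb1.

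Lung epithelial cells carry the integrin alphavbeta6, which turns latent TGFb into its active form, a growth factor that holds alveolar macrophages in check. TNF family ligands are membrane proteins, several of them also shed, that act as trimers on TNF receptors. Some receptors recruit TRAF adaptors and switch on the transcription factor NF-kB, others carry a death domain that can lead to caspase activation, and a few are decoys that bind a ligand without a signal. Macrophages are a main source of Tnf and also make Tnfsf13b (BAFF) and Tnfsf13 (APRIL), which keep B cells and plasma cells alive.

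The stretches of 250 bases before the transcription start are shown for the genes with the 3 smallest p-values of the family, since the results below turn on them. They are RefSeq sequence of the mouse assembly GRCm38.p6, written 5' to 3' on the gene's own strand. Capitals mark matches on either strand to the core letters of a motif. The motifs were AP-1 (TGANTCA), PU.1 (GAGGAA, the myeloid factor of macrophages), Smad (CAGAC, the factors that carry the TGFb signal) and the NF-kB consensus. Tnf lies at chr17:35202008-35202257 (minus strand), Tnfrsf18 at chr4:156026072-156026321 (plus strand), and a start site of Tnfsf13b at chr8:10006383-10006632 (plus strand).
Tnf: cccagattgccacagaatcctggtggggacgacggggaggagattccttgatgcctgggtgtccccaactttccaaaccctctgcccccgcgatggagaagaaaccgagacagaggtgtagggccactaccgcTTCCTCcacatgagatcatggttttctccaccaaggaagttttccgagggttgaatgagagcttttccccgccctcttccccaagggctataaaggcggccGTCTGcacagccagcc
Tnfrsf18: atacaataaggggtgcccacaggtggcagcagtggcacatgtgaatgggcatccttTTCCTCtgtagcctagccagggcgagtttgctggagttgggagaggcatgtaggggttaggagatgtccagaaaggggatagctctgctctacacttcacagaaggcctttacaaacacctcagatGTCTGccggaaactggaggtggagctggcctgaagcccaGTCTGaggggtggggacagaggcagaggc
Tnfsf13b: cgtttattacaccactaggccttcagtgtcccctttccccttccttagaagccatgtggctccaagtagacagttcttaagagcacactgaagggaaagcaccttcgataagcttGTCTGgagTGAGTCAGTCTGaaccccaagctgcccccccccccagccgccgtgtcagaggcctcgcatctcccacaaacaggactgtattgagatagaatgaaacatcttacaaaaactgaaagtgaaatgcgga

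The Tnf window holds a PU.1 match at base -117 and a Smad match at base -16, counted from the start site to the first base of the match. In the Tnfrsf18 window a PU.1 match stands at -194 and Smad matches at -68 and -29. The Tnfsf13b window has an AP-1 match at -127 with a Smad match on each side of it, at -135 and -120, and the matches do not overlap. The table gives Tnfsf13b a further start site, whose window at chr8:10006217-10006466 overlaps this one and has a Smad match at -126. No NF-kB consensus was found in these windows, which says only that those letters are not there. Of the 39 genes, 30 had a window in the table (34 windows). An NF-kB consensus was found in 4 of the 30 (Ltb, Tnfrsf25, Tnfrsf8 and Tnfrsf9), AP-1 in 6, PU.1 in 11 and Smad in 16. Counted by window, matches stood in 4, 6, 11 and 18 of the 34, in the same order. Among all 32851 windows of this length the shares were 7.25% for NF-kB, 6.75% for AP-1, 23.3% for PU.1 and 42.2% for Smad. A match is a description of the letters and not a site of binding.

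All values below are log2 ratios of sample to reference after each array was centred on its median, so 0 is the array's median and a difference of 1 is a 2-fold change. The direction of the ratio is called likely. It rests on the reference being listed as the first channel and on Mmp12, known to rise in macrophages of the beta6 null mouse. Direction and base are stated in no label or header, and an inverted ratio would turn every sign. Since each value is relative to a macrophage reference, it does not rank genes by abundance, and a value near 0 does not mean that a gene is silent. The arrays carried 11590 to 16457 values each, with SDs of 0.841 to 2.01, and the widest were wild type replicate 2 and beta6 null replicate 1. Their correlations over features were low, with a median r of 0.4 within and 0.359 between groups. The number of arrays limits the precision.

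Of the 34 genes, 1 passed the test: Tnfsf13b was lower in beta6 null macrophages than in the wild type, and its level with TGFb1 was close to the beta6 null level. Tnf was also lower on every measured beta6 null array than on every wild type array, and Tnfrsf18 was higher, but neither passed over all features. In beta6 null against wild type, limma called 1 of 34 members at an adjusted p under 0.05, against 0.949% of all 13273 features. The one gene was among the lower ones, which made up 0.588% of all features. At an unadjusted p under 0.05 there were 5 of 34 members (14.7%), against 11.5% of all features. Between beta6 null with TGFb1 and beta6 null, limma called 0 of 34 members against 0.708% of all features. At an unadjusted p under 0.05 there were 4 (11.8%), below the 15% of all features. Between beta6 null with TGFb1 and wild type, limma called 0 of 34 members and 0% of all features, and 1 member (2.94%) had an unadjusted p under 0.05, against 6.28% of all features. These shares are near those of all features, so the family as a whole did not stand out by them.

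Taken by role, the 14 ligands had a median difference of 0.10 in beta6 null with TGFb1 against beta6 null, with 8 above 0 and 6 below. The 20 receptors had a median of -0.24, with 6 above 0 and 14 below. Over all features the median was 0.12, with 7523 above 0 and 5750 below. In beta6 null against wild type the medians were -0.048 for ligands (6 above 0, 8 below), 0.026 for receptors (12 above, 8 below) and -0.047 for all features (6223 above, 7050 below). The ligands ranged from -2.06 to 2.30 and the receptors from -1.89 to 1.80 in that comparison, so neither role moved 1 way. There 4 of 14 ligands (28.6%) and 1 of 20 receptors (5%) had an unadjusted p under 0.05 by limma, against 11.5% of all features. The groups did not overlap for 3 ligands and 1 receptor, against 5.12% of all features. With TGFb1 against beta6 null the unadjusted counts were 1 ligand (7.14%) and 3 receptors (15%), against 15% of all features. The contrast between the roles was not tested. The comparisons share the beta6 null arrays, so opposite signs in them are not separate results.

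**Figure D1:**
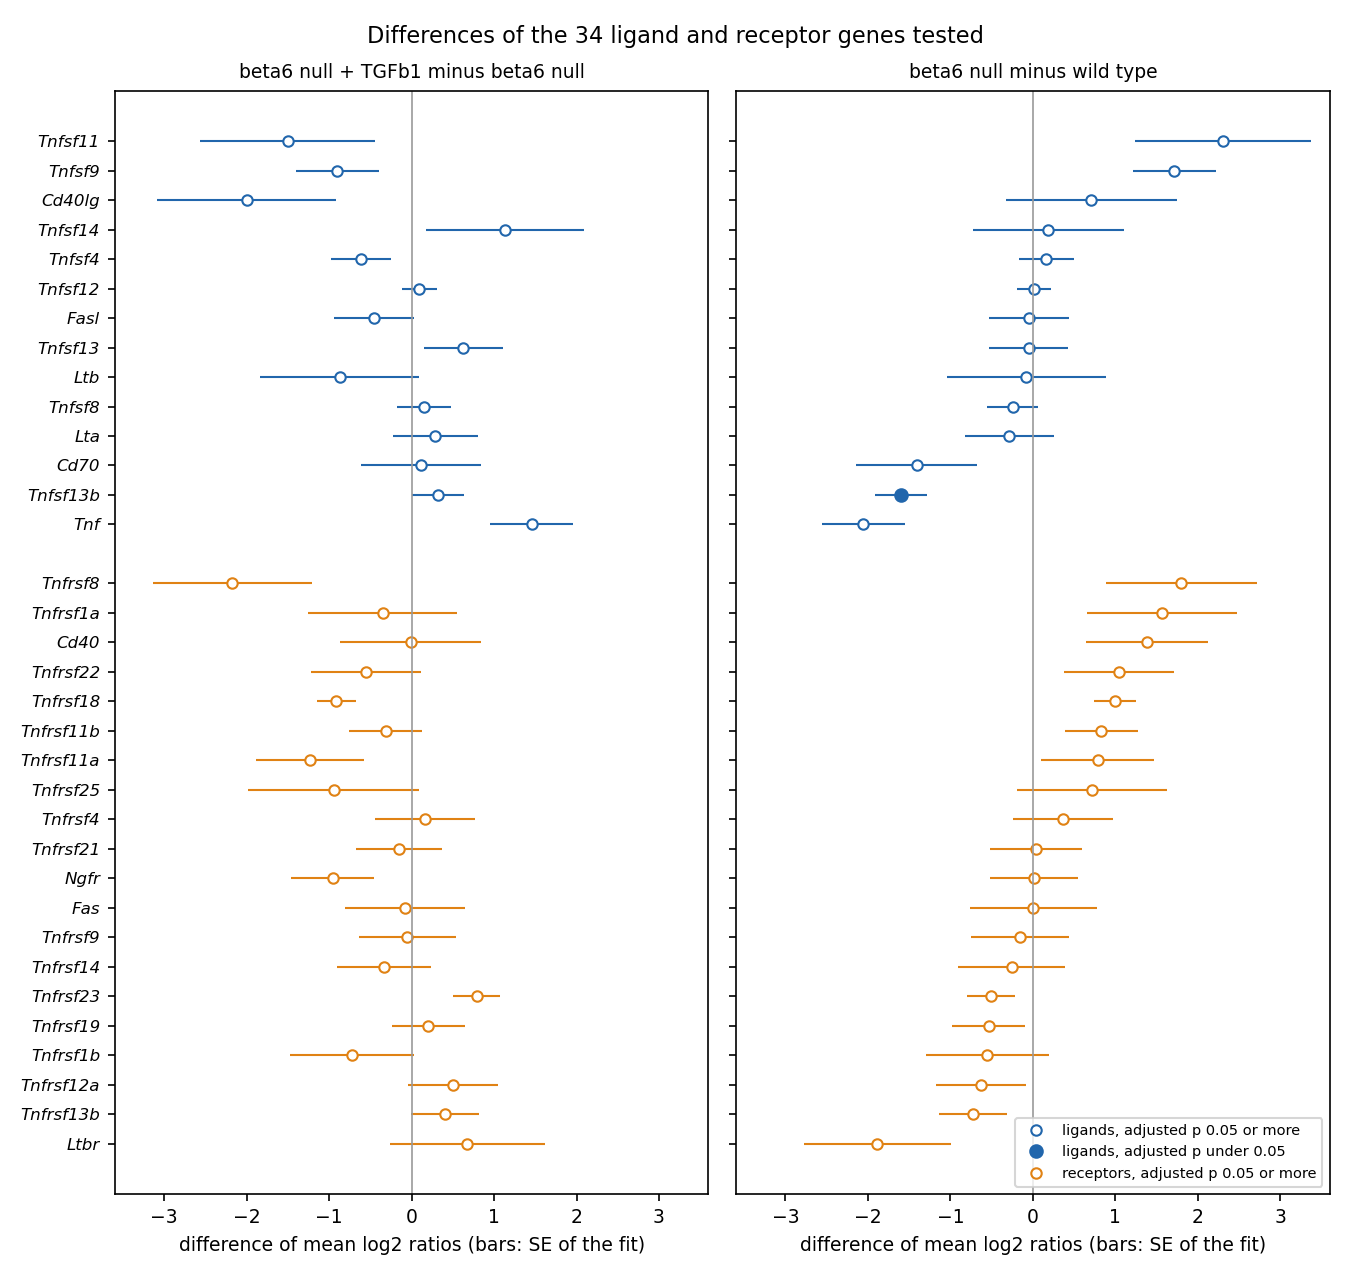
Differences of mean log2 ratio for the 34 genes tested, ligands in the upper block and receptors in the lower, in beta6 null with TGFb1 minus beta6 null (left) and beta6 null minus wild type (right). Points are the fitted differences and bars their standard errors. Tnfsf13b (-1.60, right panel) is the filled point, and Tnf (-2.06) lies below it with a wider bar.

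Tnfsf13b encodes BAFF, the survival factor of B cells. Its log2 ratio was -1.66, -1.37, -1.53, -2.02 and -1.25 in beta6 null with TGFb1, and -2.96, -1.29, -1.74, -1.54 and -1.87 in beta6 null. The wild type arrays stood at -0.53, 0.23, -0.31, -0.55 and -0.25. All 10 arrays from beta6 null mice, with or without TGFb1, lay below all 5 wild type arrays. The means were -1.57 ± 0.30 in beta6 null with TGFb1, -1.88 ± 0.64 in beta6 null and -0.28 ± 0.31 in wild type (SD, n = 5 each). In beta6 null the level fell by 1.60 relative to wild type (SE 0.31, limma adjusted p = 0.025), a level 3.03-fold lower. Beta6 null with TGFb1 was 1.28 log2 units under wild type by the means (difference -1.28, SE 0.31), which did not pass over all features (limma adjusted p = 0.651). Between beta6 null with TGFb1 and beta6 null the difference was 0.32 (SE 0.31, limma adjusted p = 0.686) and the groups overlapped. That difference turned negative under quantile normalization (-0.33) and with equal array spreads (-0.26), and was 0.045 without beta6 null replicate 1.

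The call of Tnfsf13b ended under quantile normalization (limma adjusted p = 0.0631), equal array spreads (0.0776), a fit to the arrays of the 2 groups (0.15), the title suffix as a block (0.0651), and without wild type replicate 3 (0.0609) or 5 (0.0648). It also ended with Xist as a covariate (difference -1.98, limma adjusted p = 0.291), and the sign was negative under all 27 alternatives. The title suffix is a 1 or a 2 at the end of an array title, whose meaning the labels do not give. The difference of Tnfsf13b was -1.73 among arrays ending in 1 (4 against 2) and -1.5 among those ending in 2 (1 against 3).

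The receptors of BAFF and APRIL are known from B cells. Tnfrsf13b (TACI) was below the array median on all 15 arrays, from -2.07 to -1.03 in beta6 null with TGFb1, -3.25 to -1.06 in beta6 null and -1.75 to -0.35 in wild type. Its differences of 0.40 (TGFb1 against beta6 null) and -0.73 (beta6 null against wild type) did not pass. Tnfrsf13c (the BAFF receptor) and Tnfrsf17 (BCMA, the plasma cell receptor) had a value on 3 arrays each and were not tested. Tnfsf13, encoding APRIL, was also below the median on all 15 arrays, with means of -0.77 ± 0.26 in beta6 null with TGFb1, -1.40 ± 0.65 in beta6 null and -1.35 ± 1.15 in wild type (SD, n = 5 each). The wild type mean and SD were set in part by replicate 2, at -3.29, while the other wild type arrays read -1.32 to -0.35. Neither difference of Tnfsf13 in the comparisons with beta6 null passed (0.63 and -0.053).

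Tnf, the inflammatory cytokine of the family, had log2 ratios of 1.11, 1.43, 2.79, 2.73 and 0.25 in beta6 null with TGFb1. On the 4 beta6 null arrays with a value it was 0.18, -0.08, 0.26 and 0.47, and in wild type it was 2.10, 1.28, 2.88, 2.31 and 2.76. Every measured beta6 null array lay below every wild type array, whereas the arrays with TGFb1 spread over the range of both, with replicate 5 at the beta6 null level. Group means were 1.66 ± 1.09 (SD, n = 5) with TGFb1, 0.21 ± 0.23 (n = 4) in beta6 null and 2.27 ± 0.64 (n = 5) in wild type. The difference of beta6 null from wild type was -2.06 (SE 0.50, unadjusted p = 0.00112 by limma, adjusted p = 0.083). With TGFb1 the difference from beta6 null was 1.46 (SE 0.50, limma adjusted p = 0.191), and 0.864 with Xist as a covariate. Against wild type it was -0.60 (SE 0.47, limma adjusted p = 0.844).

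Tnf passed in beta6 null against wild type under 4 of 26 alternatives: array weights (limma adjusted p = 0.0168), and without the 2 widest arrays (0.036), wild type replicate 2 (0.0477) or replicate 5 of the TGFb1 group (0.0467). With array weights and without the 2 widest arrays more features were called in all, as counted further below. Replicate 5 of the TGFb1 group is in neither group of that comparison and enters it only through the shared spread. Among arrays ending in 1 its difference with TGFb1 was 2.20 (3 against 3 arrays), and among those ending in 2 it was 0.21 (2 against 1).

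The Tnf receptors did not pass. Tnfrsf1a, the death domain receptor that most cells carry, averaged 0.17 ± 0.57 in beta6 null with TGFb1, 0.52 ± 0.63 in beta6 null and -1.05 ± 2.57 in wild type (SD, n = 5 each). The wild type mean and its SD come largely from replicate 2, at -5.58, while the other 4 arrays lay between -0.60 and 0.66. Tnfrsf1b, the Tnf receptor without a death domain, averaged -0.40 ± 0.46, 0.32 ± 1.01 and 0.87 ± 1.92 in the same order, with the same wild type array at 4.08. Lta, a soluble ligand of these receptors made by lymphocytes, was within 0.29 of 0 in all 3 differences.

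**Figure D2:**
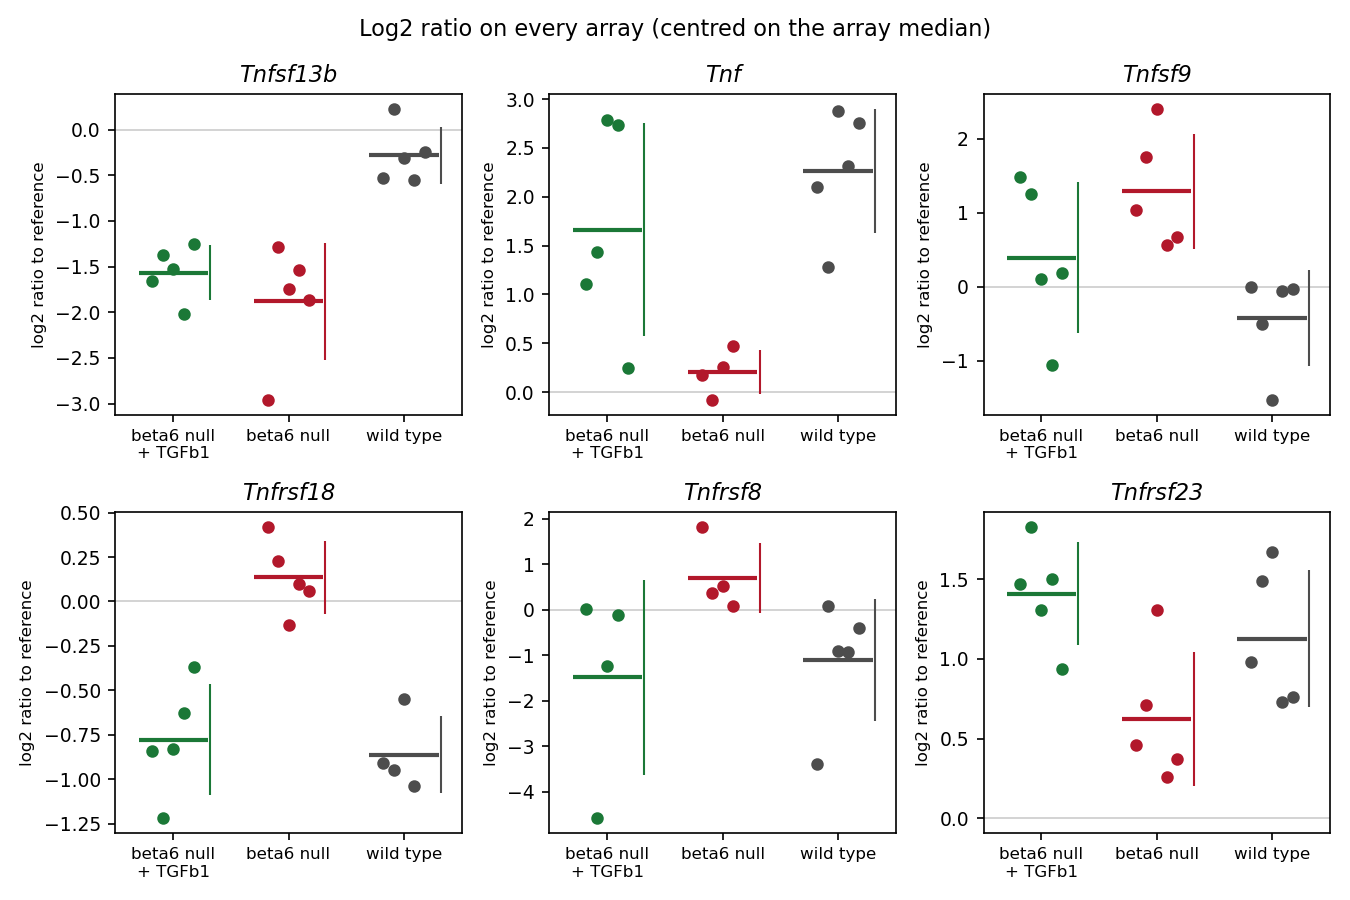
Centred log2 ratio to the reference on every array for Tnfsf13b, Tnf and Tnfsf9 (ligands, top) and Tnfrsf18, Tnfrsf8 and Tnfrsf23 (receptors, bottom), with horizontal bars at the means and vertical bars for the SD. The 5 wild type points of Tnfsf13b stand above the other 10, and the beta6 null points of Tnfrsf18 (-0.13 to 0.42) stand above both other groups.

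Tnfrsf18 (GITR), a costimulatory receptor best known from regulatory T cells, differed from both other groups in beta6 null. Its log2 ratio was -0.84, -1.22, -0.83, -0.63 and -0.37 in beta6 null with TGFb1, and 0.42, 0.23, -0.13, 0.10 and 0.06 in beta6 null. On the 4 wild type arrays with a value it was -0.91, -0.95, -0.55 and -1.04. Each beta6 null value exceeded each value of the other groups. The differences were -0.92 with TGFb1 against beta6 null (SE 0.24, limma adjusted p = 0.0938) and 0.997 for beta6 null against wild type (SE 0.25, limma adjusted p = 0.0962), a 2-fold difference that did not pass. Beta6 null with TGFb1 and wild type differed by 0.083 (SE 0.25, limma adjusted p = 0.968). Array weights took both differences past the threshold (limma adjusted p = 0.0163 and 0.0179), but they also called many more features in all, as counted further below. Without wild type replicate 2 the first difference passed too (limma adjusted p = 0.043). That array has no value of Tnfrsf18, so its difference stayed the same. Only the spread shared with other features and the adjustment over them changed. The ligand gene Tnfsf18 was not analysed here.

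Groups that did not overlap gave a further view of single members. In beta6 null with TGFb1 against beta6 null 2 of 34 members were apart, Tnfrsf18 and Tnfrsf8, both lower, against 8.26% of all features. In beta6 null against wild type 4 of 34 were apart, Tnfsf13b and Tnf lower and Tnfrsf18 and Tnfsf9 higher, against 5.12% of all features. Against wild type, beta6 null with TGFb1 had 1 apart, Tnfsf13b, against 2.88%.

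Tnfsf9 (4-1BB ligand), a costimulatory ligand of antigen-presenting cells, had log2 ratios of 1.49, 1.25, 0.10, -1.06 and 0.19 in beta6 null with TGFb1. It stood at 1.04, 1.76, 2.41, 0.56 and 0.68 in beta6 null, against 0, -0.50, -1.53, -0.06 and -0.03 in wild type. All beta6 null arrays were above all wild type arrays, and the TGFb1 arrays overlapped both. The difference of beta6 null from wild type was 1.72 (SE 0.51, limma adjusted p = 0.157), and that with TGFb1 from beta6 null was -0.90 (SE 0.51, limma adjusted p = 0.429). The second was -0.54 without TGFb1 replicate 4, and with Xist as a covariate the differences were 1.03 and -0.22. Its receptor Tnfrsf9 (4-1BB) was read by 2 probes that did not move together. The first averaged -0.12 ± 0.60 (SD, n = 5) with TGFb1, 1.02 ± 0.76 (n = 4) in beta6 null and 0.28 ± 0.22 (n = 5) in wild type. For the second the means were 0.091 ± 0.32 (n = 4), -0.09 ± 1.54 (n = 5) and 0.19 ± 0.26 (n = 5), with beta6 null replicate 3 at -2.83. Neither probe passed, nor did their average.

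Tnfsf11 (RANK ligand), the ligand that drives osteoclasts, had log2 ratios of -2.06, 0.89, 1.06 and 1.12 on the 4 arrays of beta6 null with TGFb1 that carried a value. It read 0.49, 4.34, 1.83, 1.94 and 0.18 in beta6 null, and 1.14, -3.6, 0.43 and -0.17 on 4 wild type arrays. The groups overlapped and the spread within each was wide. The difference of beta6 null from wild type was 2.30 (SE 1.07, limma adjusted p = 0.434). It was 1.29 without wild type replicate 3, the array at -3.6, and also 1.29 with the title suffix as a block. Its receptor Tnfrsf11a (RANK) averaged 0.59 ± 1.24 (SD, n = 5) with TGFb1, 1.82 ± 0.61 (n = 4) in beta6 null and 1.03 ± 1.10 (n = 4) in wild type. The decoy Tnfrsf11b (osteoprotegerin) averaged 0.54 ± 0.20, 0.85 ± 0.50 and 0.021 ± 1.10 in the same order (n = 5 each), with wild type replicate 2 at -1.90. None of these 3 genes passed in any comparison.

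Tnfrsf8 (CD30), a receptor of activated lymphocytes, read 0.01, -4.58, -1.23 and -0.12 on 4 arrays of beta6 null with TGFb1, and 1.82, 0.36, 0.52 and 0.07 on 4 beta6 null arrays. The wild type arrays read -3.38, 0.09, -0.91, -0.94 and -0.40. Each beta6 null value was above each value with TGFb1, by as little as 0.07 against 0.01. The difference was -2.17 (SE 0.96, limma adjusted p = 0.314), and -1.14 without the TGFb1 array at -4.58, replicate 3. The difference of beta6 null from wild type was 1.80 (SE 0.92, limma adjusted p = 0.474). Its ligand Tnfsf8 stayed near the array medians, with means of 0.20 ± 0.32 (SD, n = 4) with TGFb1, 0.054 ± 0.34 (n = 4) in beta6 null and 0.30 ± 0.45 (n = 5) in wild type.

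Tnfrsf23, a mouse decoy receptor for TRAIL, was above the median on all 15 arrays. It read 1.47, 1.83, 1.31, 1.5 and 0.94 in beta6 null with TGFb1, 0.46, 0.71, 1.31, 0.26 and 0.37 in beta6 null, and 0.98, 1.49, 1.67, 0.73 and 0.76 in wild type. The beta6 null arrays were mostly low, but replicate 3 reached the level of the other groups. With TGFb1 the difference from beta6 null was 0.79 (SE 0.29, limma adjusted p = 0.212), and beta6 null differed from wild type by -0.51 (SE 0.29, limma adjusted p = 0.52). The other decoy, Tnfrsf22, averaged -0.025 ± 1.08, 0.53 ± 0.86 and -0.52 ± 1.09 in beta6 null with TGFb1, beta6 null and wild type (SD, n = 4 each), which does not follow Tnfrsf23. TRAIL itself (Tnfsf10) had a value on 7 arrays and its signalling receptor Tnfrsf10b on 9, too few for a test.

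Ltbr, the lymphotoxin beta receptor of stromal and myeloid cells, read -1.14, -0.49, -0.12 and 0.42 on 4 arrays of beta6 null with TGFb1. On 4 beta6 null arrays it read 0.57, -4.52, 0.20 and -0.28, and in wild type 1.28, 2.32, 0.54, -0.06 and 0.32. Replicate 3 alone set the low beta6 null mean. The difference of beta6 null from wild type was -1.89 (SE 0.89, limma adjusted p = 0.445) and shrank to -0.72 without that array, to -0.59 with array weights and to -0.53 with Xist as a covariate. Its ligand Ltb averaged -0.81 ± 2.19 (SD, n = 5) with TGFb1, 0.061 ± 0.24 (n = 3) in beta6 null and 0.14 ± 0.69 (n = 5) in wild type. Tnfsf14 (LIGHT), which binds Ltbr and Tnfrsf14, differed by 1.14 with TGFb1 against beta6 null (SE 0.96) and did not pass. Tnfrsf14 (HVEM) had differences of -0.34 and -0.26 from the same pair of comparisons.

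Among the costimulatory pairs of T cell help, Cd40, through which T cells activate macrophages, averaged 1.27 ± 2.38 (SD, n = 3) in beta6 null with TGFb1, 1.29 ± 0.59 (n = 5) in beta6 null and -0.10 ± 0.94 (n = 5) in wild type. The mean with TGFb1 came largely from replicate 1, at 3.93, while the other arrays with a value read -0.68 and 0.57. The beta6 null arrays ran from 0.36 to 1.93 and the wild type arrays from -1.36 to 0.95, so these 2 groups overlapped (difference 1.39, SE 0.74, limma adjusted p = 0.495). Cd40lg, its T cell ligand, differed by -2.00 with TGFb1 against beta6 null (SE 1.09, limma adjusted p = 0.42). Cd70 was -1.41 in beta6 null against wild type (SE 0.73, limma adjusted p = 0.478), with 2 wild type arrays at 2.4 and 2.01 and the other 3 at or below -0.08. Its receptor Cd27 had a value on 4 arrays and was not tested. Tnfsf4 (OX40 ligand) and Tnfrsf4 (OX40) differed by -0.62 and 0.17 with TGFb1 against beta6 null, and by 0.17 and 0.36 in beta6 null against wild type, with no call.

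The remaining members moved little or varied widely. Fas, the death receptor, averaged -1.34 ± 0.91 (SD, n = 5) in beta6 null with TGFb1, -1.26 ± 1.22 (n = 4) in beta6 null and -1.27 ± 1.43 (n = 4) in wild type, differences of -0.08 and 0.0059 from the 2 comparisons with beta6 null. Its ligand Fasl lay within 0.50 of 0 in all 3 differences. Tnfsf12 (TWEAK) had the smallest standard error of a difference among the 34 genes (0.21), with means of -0.19 ± 0.096, -0.29 ± 0.15 and -0.30 ± 0.26 in the same order (n = 5 each), and its receptor Tnfrsf12a (Fn14) differed by 0.50 and -0.63. Ngfr, the neurotrophin receptor p75, differed by -0.96 with TGFb1 against beta6 null (SE 0.51, limma adjusted p = 0.396), with replicate 1 at -2.96. The death domain receptors Tnfrsf21 (DR6) and Tnfrsf25 (DR3) and the receptor Tnfrsf19 (TROY) gave differences of -0.16, -0.95 and 0.20 there, and of 0.041, 0.72 and -0.54 in beta6 null against wild type.

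**Figure D3:**
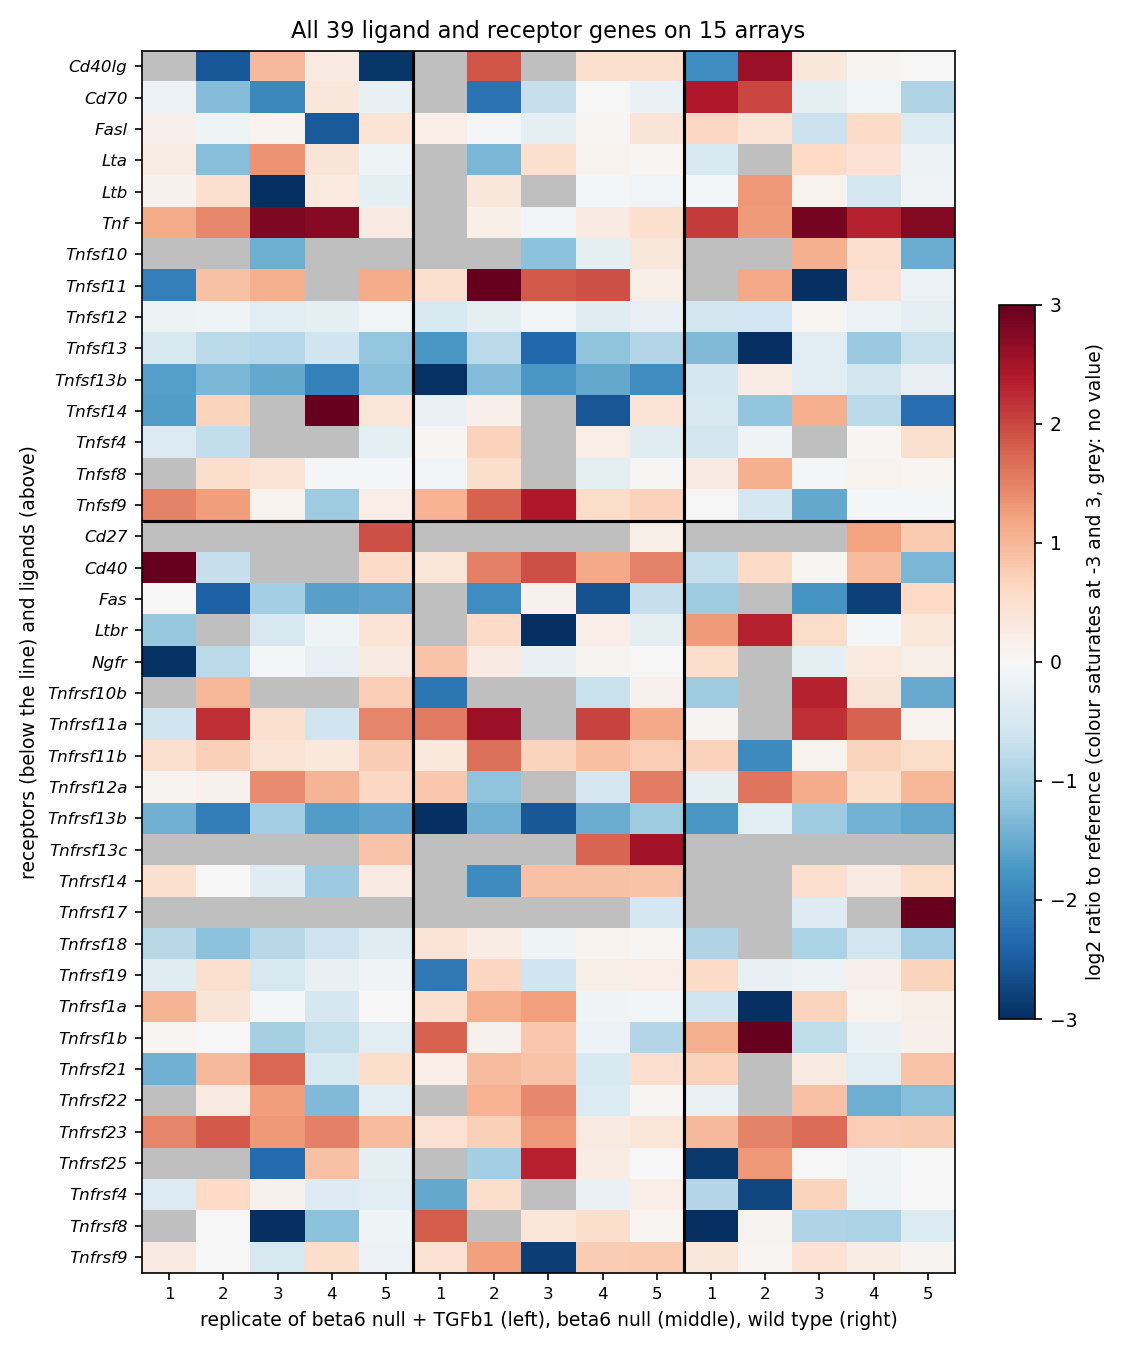
Centred log2 ratios of all 39 genes (rows, ligands above the line) on the 15 arrays (columns, by group), red above and blue below the array median, grey without a value. The row of Tnf is pale in the middle block (-0.08 to 0.47), that of Tnfsf13b is pale in the wild type block (-0.55 to 0.23), and wild type replicate 2 holds several of the strongest colours, such as Tnfrsf1a at -5.58 and Tnfrsf1b at 4.08.

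The genes that carry or answer these signals were followed in 4 lists. Of the adaptors, kinases and caspases that act at the receptors, 23 were tested and limma called 0 in all 3 comparisons, with 5, 4 and 2 at an unadjusted p under 0.05 (TGFb1 against beta6 null, beta6 null against wild type, TGFb1 against wild type). Of all features, 15%, 11.5% and 6.28% had such a p in that order. The medians of the list were 0.15, -0.12 and 0.053, near the 0.12, -0.047 and 0.07 of all features. Birc3 (cIAP2), a ubiquitin ligase of the Tnf receptor complex, averaged -0.38 ± 0.31 with TGFb1, -1.42 ± 0.53 in beta6 null and -0.55 ± 0.60 in wild type (SD, n = 5 each). With TGFb1 every array lay above every beta6 null array, a difference of 1.04 (SE 0.34, limma adjusted p = 0.162). Tbk1, a kinase of NF-kB and interferon signalling, differed by 0.85 and -0.73 in the same pair of comparisons. Ripk3, the kinase of necroptosis, differed by 1.47 in beta6 null against wild type (SE 0.42, limma adjusted p = 0.141). Traf1, an adaptor that NF-kB itself induces, differed by -3.79 with TGFb1 against beta6 null (SE 1.03, limma adjusted p = 0.118, 4 arrays each).

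NF-kB subunits, kinases and inhibitors had no call among 11 tested in any comparison, with 0, 1 and 0 at an unadjusted p under 0.05 in the same order. Relb, a subunit of the noncanonical pathway that BAFF and lymphotoxin receptors use, averaged -0.13 ± 0.61 (SD, n = 5) with TGFb1, -1.01 ± 1.19 (n = 4) in beta6 null and 0.58 ± 0.72 (n = 3) in wild type. Its difference of -1.59 in beta6 null did not pass (SE 0.63, limma adjusted p = 0.347). The inhibitors Nfkbia and Nfkbie and the kinase Ikbke gave differences of -0.74, 2.51 and 0.12 there, with wild type arrays of Nfkbie from -4.84 to 0.62. Ikbke had its smallest p with TGFb1 against beta6 null (-1.085, limma adjusted p = 0.384). For Nfkbia it was with TGFb1 against wild type (-1.395, limma adjusted p = 0.82). Genes that shed Tnf or control its mRNA had no call among 8 tested, with 1, 0 and 0 at an unadjusted p under 0.05. Adam17, the protease that releases Tnf from the membrane, averaged -0.36 ± 0.14 with TGFb1, -1.02 ± 0.50 in beta6 null and -0.50 ± 0.43 in wild type (SD, n = 5 each), and its difference of 0.66 with TGFb1 did not pass (SE 0.29, limma adjusted p = 0.3). Zfp36, which destabilises Tnf mRNA, was 0.44 and 0.15 in the 2 comparisons with beta6 null, its relative Zfp36l1 was -0.98 and 0.47, and Timp3, the inhibitor of Adam17, was 0.34 and -0.94.

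Of 25 tested genes known to be induced by Tnf or NF-kB, 1 was called, in beta6 null against wild type, where 0.949% of all features were called. It was Ccl5, a chemokine for T cells and monocytes. Its log2 ratio was -0.20, 0.33, 0.07, 0.13 and 0.05 in beta6 null with TGFb1, 2.03, 1.76, 1.81, 0.52 and 0.69 in beta6 null, and -0.79, -0.39, -1.72, -0.49 and -0.36 in wild type. The 3 groups did not overlap, with beta6 null above TGFb1 and TGFb1 above wild type. Ccl5 rose by 2.11 in beta6 null against wild type (SE 0.35, limma adjusted p = 0.00785), a call lost with the arrays of these 2 groups alone (0.0868) and with Xist as a covariate (0.548). With TGFb1 its difference from beta6 null was -1.29 (SE 0.35, limma adjusted p = 0.104), and -0.83 with equal array spreads or -0.69 with array weights. The next by p were Csf1, the macrophage growth factor (1.47 in beta6 null against wild type, SE 0.36, limma adjusted p = 0.0794), Ier3, an early response gene (1.49 in beta6 null against wild type, SE 0.49, limma adjusted p = 0.223), and Cxcl1, a neutrophil chemokine (-2.41 with TGFb1 against beta6 null, SE 0.80, limma adjusted p = 0.169). Replicate 5 of the TGFb1 group, the array lowest for Tnf there, stood far below the other 4 for several chemokines of the list. Cxcl1 read -1.17 on it (2.37 to 3.75 on the others), Ccl2 0.42 (3.77 to 5.11), Ccl3 0.48 (3.58 to 5.06), Ccl4 0.40 (1.59 to 2.36) and Cxcl2 1.10 (4.29 to 6.21). Without that array the difference of Cxcl1 was -1.54 (limma adjusted p = 0.184). The medians of the list were -0.42, 0.14 and -0.24 in the order above. Below 0 were 16, 10 and 16 of its 25 genes, beside 5750, 7050 and 5925 of all 13273 features. Without TGFb1 replicate 5 the list's medians were -0.18 with TGFb1 against beta6 null and -0.07 against wild type, with 16 and 13 of 25 below 0.

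**Figure D4:**
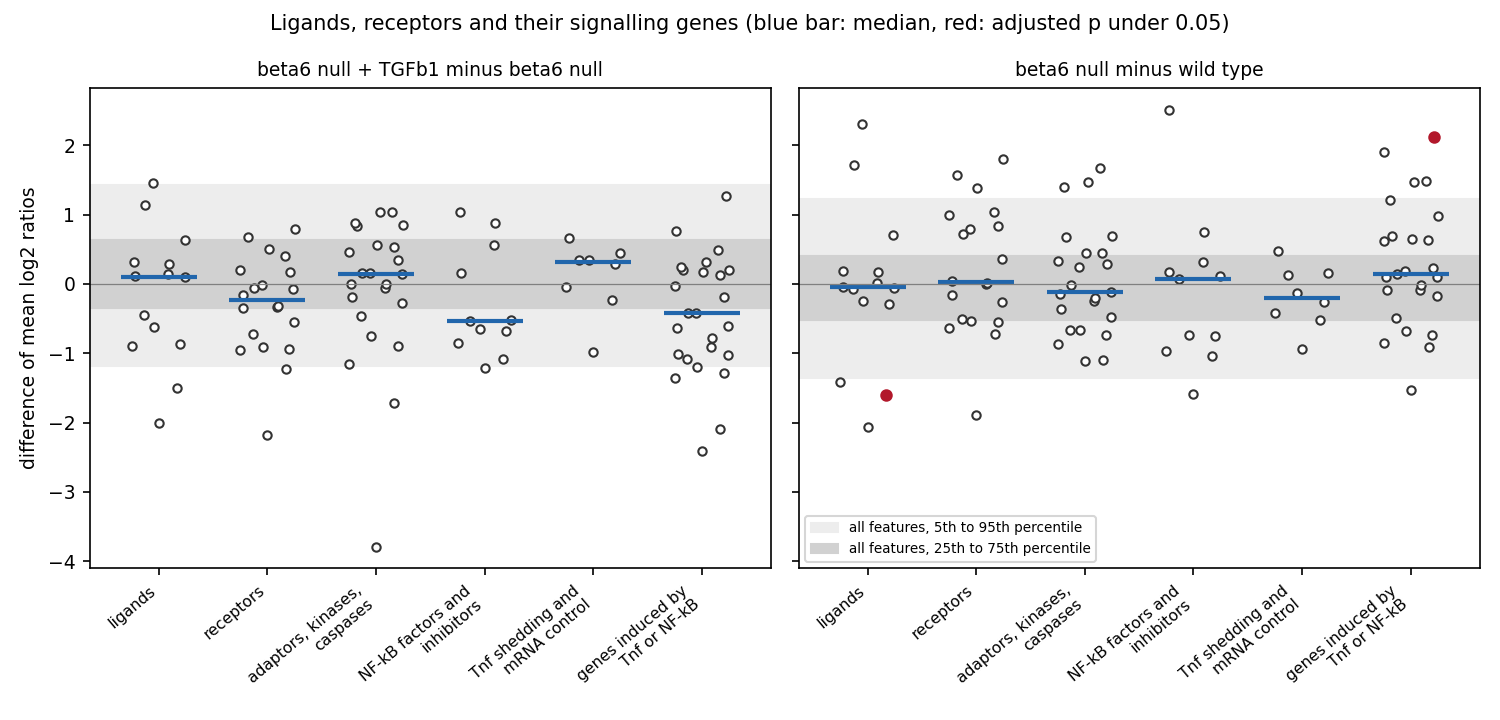
Differences of mean log2 ratio for ligands, receptors and the 4 lists of signalling genes, each point a gene, in beta6 null with TGFb1 minus beta6 null (left) and beta6 null minus wild type (right). Blue bars are medians and grey bands cover the 5th to 95th and the 25th to 75th percentiles of all features. The filled points, Tnfsf13b (-1.60) and Ccl5 (2.11), are in the right panel.

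Markers of the macrophages themselves and of other cells moved beside these genes. In bulk samples, fewer cells of a type and less RNA per cell cannot be told apart. Against a macrophage reference the ratios also cannot show whether a marker is present, so the label of the cells was not checked by level. Of 14 alveolar macrophage markers tested, 4 passed as higher in beta6 null with TGFb1 than in beta6 null (Olr1, Fabp1, Krt19 and Pparg) and 3 as lower in beta6 null than in wild type (Olr1, Fabp1 and Krt19). Of all features, 0.58% were called higher in the first comparison. Over 27 alternatives the first comparison called Olr1 and Fabp1 in 24 each, Krt19 in 22 and Pparg in 16, and the second called Olr1 and Fabp1 in 26 each and Krt19 in 16. All these differences kept their sign. The mean of the 12 markers read on all arrays was -1 to -0.36 with TGFb1, -2.08 to -1.93 in beta6 null and -1.42 to -0.29 in wild type, so beta6 null lay apart from both. That mean includes the called genes, and the list was chosen with earlier results of these data known, so its separation is not a separate result. None of the 17 tested T and NK cell markers or 8 B and plasma cell markers was called by limma in any comparison, with 3, 3 and 1 and with 2, 1 and 0 at an unadjusted p under 0.05. Their means on the arrays were -0.16 to 0.50, -0.29 to 0.27 and -0.09 to 0.60 for T and NK cells (6 markers) in beta6 null with TGFb1, beta6 null and wild type. For B and plasma cells (3 markers, Blk, Cd22 and Sdc1) they were -2.27 to 0.38, -0.27 to 1.34 and -0.15 to 0.53. The -2.27 is replicate 1 with TGFb1 and comes largely from Blk at -6.01, which read -1.4 to -0.18 on the other arrays of that group. S100a8, a neutrophil and monocyte gene, was the 1 neutrophil marker of 9 that passed in beta6 null against wild type (2.13, SE 0.29, limma adjusted p = 0.00148), and the list's mean was -0.95 to 0.29, -0.30 to 0.73 and -0.89 to -0.11.

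Lung epithelial markers gave 3 calls, 2 of which were lost under most alternatives. Of 10 tested, Epcam was lower (-2.34, limma adjusted p = 0.014) and Sftpc higher (2.18, limma adjusted p = 0.0459) in beta6 null against wild type. Epcam was also higher with TGFb1 than without it (1.98, limma adjusted p = 0.0442). The Epcam calls held in 22 of 27 alternatives against wild type and in 9 of 27 with TGFb1, and the Sftpc call in 7 of 26. With TGFb1 against beta6 null 8 of the 10 lay below 0, and 7 lay above 0 in beta6 null against wild type. The list's mean (5 markers) was -0.81 to -0.41 with TGFb1, -0.89 to 0.09 in beta6 null and -1.46 to -0.02 in wild type. Of 9 dendritic cell and monocyte markers, Ly75 was lower in beta6 null than in wild type (-2.72, limma adjusted p = 0.00117). Itgae was lower with TGFb1 than in beta6 null (-3.89, SE 0.73, limma adjusted p = 0.0332). That difference rests on 3 arrays with TGFb1 against 5 of beta6 null, and was called in 15 of 22 alternatives. Most of the list lay the other way from Ly75 in beta6 null against wild type, with 7 of 9 above 0, a median of 1.04 and 5 of 9 at an unadjusted p under 0.05. There Ly6c1, a monocyte surface antigen, differed by 3.68 with groups apart (SE 0.97, limma adjusted p = 0.118) and Itgae by 2.28, neither called. With TGFb1 against beta6 null 6 of 9 lay below 0, with a median of -0.76 and 4 of 9 at an unadjusted p under 0.05. The mean of the 3 markers read on all arrays (Batf3, Ly75 and Zbtb46) was -0.94 to -0.36, -1.15 to -0.82 and -0.79 to -0.04, and leaves out most of the list. The 4 fibroblast and endothelial markers tested had no call, and none had an unadjusted p under 0.05. Xist, the noncoding RNA that silences an X chromosome in female cells, stood at -3.07 ± 0.49 with TGFb1, -0.40 ± 1.48 in beta6 null and -3.10 ± 0.71 in wild type (SD, n = 5 each), a difference of -2.67 with TGFb1 against beta6 null (limma adjusted p = 0.0524) and of 2.69 in beta6 null against wild type (limma adjusted p = 0.0444). With Xist as a covariate limma called 0 features in all 3 comparisons, with 1096, 926 and 764 at an unadjusted p under 0.05. The median SE of a difference was then 0.789 with TGFb1 against beta6 null, against 0.495 without the covariate, and 0.798 against 0.5 in beta6 null against wild type. In beta6 null against wild type the differences with the covariate were -1.98 for Tnfsf13b, -1.46 for Tnf, 0.96 for Tnfrsf18, 1.74 for Ccl5, -3.41 for Olr1 and -2.80 for Fabp1. Xist was higher on every beta6 null array but replicate 4 (-2.46) than on all arrays of the other groups. A difference in sex, which the labels do not give, therefore cannot be told apart from genotype, with or without the covariate. The part of the marker shifts in the values of Tnfsf13b, Tnf, Tnfrsf18 and Ccl5 was not tested.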

How the data were processed

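Total RNA of alveolar macrophages was measured on 15 spotted 2-colour arrays, 5 for each of the 3 groups that the labels give. The deposited values are 1 log ratio for each probe and array, treated here as log2. Neither the labels nor the file headers name the steps by which the authors corrected and normalized the signals behind these deposited log2 ratios. The number of arrays and their spread limit the precision.

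Of 17225 probes, 30 control spots were left out. Of the other 17195, 13972 had 1 symbol in the platform annotation, 13 had several and 3210 were not listed there. For 13869, the symbol was looked up by Entrez ID in RefSeq (GRCm38.p6). Probes of 1 gene were averaged (988 genes). Arrays were centred on their medians. The 13273 features with 3 or more values in each group entered a linear model of 3 group means (lmFit and eBayes of limma 3.58.1, R 4.3.3), which leaves a missing value out of its gene's fit. P-values were adjusted by Benjamini-Hochberg over all features of a comparison, with a threshold of 0.05. The steps were tested on simulated data. Differences are the first named group minus the second, with SEs from the fit, and group means carry SDs over arrays.

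Values on every array are given for the 8 members with the smallest unadjusted p in any comparison. Genes of the signalling lists are named where they passed, or else up to 4 with the smallest p. The members and lists were chosen with earlier results of these data known, so nothing here is independent of those results. Normalization, filters, array weights, left-out arrays, the array title's suffix and Xist were varied in 27 alternatives.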

Additional observations from a re-analysis of the deposited data

Results flagged for a closer look

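Within a group, 9 of 97 gene and group combinations (9.28%) had 1 array far from the others by Dixon's test, which chance alone gives in about 5%. Of the 9, 3 were in the 2 arrays with the widest values, all 3 in wild type replicate 2. In beta6 null with TGFb1, Fasl read -2.51 on replicate 4, where the other arrays read -0.12 to 0.42. Ltb read -4.69 on replicate 3 of that group, against -0.26 to 0.47 on the others. Tnfsf11 read -2.06 on replicate 1, against 0.89 to 1.12 on the others. In beta6 null, Ltbr read -4.52 on replicate 3, against -0.28 to 0.57, and Tnfrsf9 read -2.83 on the same array, against 0.45 to 1.24. Tnfrsf14 read -1.89 on beta6 null replicate 2, against 0.86 to 0.89. In wild type replicate 2, Tnfsf8 read 1.07 (-0.03 to 0.28 on the others), Tnfrsf11b -1.90 (0.11 to 0.68) and Tnfrsf1a -5.58 (-0.60 to 0.66). None of these 9 genes passed the test in any comparison.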

How the results depend on the processing

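In beta6 null against wild type the number of features called was 126. It was 76 under quantile normalization, 61 with equal array spreads, 41 when the group not compared was left out, 433 with array weights, 190 without the 2 widest arrays, 78 without the 2 arrays whose title numbers stand apart from the rest, 64 with the title suffix as a block and 0 with Xist as a covariate. Leaving out 1 array at a time gave 64 to 154. Members called there were 1 (Tnfsf13b). The count was 0 under quantile normalization, equal spreads, without the group not compared, the suffix block and Xist, 3 with array weights (with Tnf and Tnfrsf18) and 2 without the widest arrays (with Tnf). It was 0 to 2 with 1 array left out, being 0 without wild type replicate 3 or 5 and 2 without wild type replicate 2 or TGFb1 replicate 5.

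In beta6 null with TGFb1 against beta6 null, 94 features were called, and 15 (quantile), 11 (equal spreads), 220 (values on every array), 1000 (array weights), 321 (without the widest), 30 (without those 2), 43 (suffix) and 0 (Xist) otherwise, with 23 to 318 when 1 array was left out. Members called were 0, 3 with array weights (Tnf, Tnfrsf18 and Tnfrsf23) and 0 to 1 with 1 array left out. The 1 was Tnfrsf18 without wild type replicate 2, an array that has no value of this gene. Against wild type the TGFb1 group had 0 features called, 1 without the group not compared, 2 with array weights and 0 to 1 with 1 array left out. Higher calls were 77 of the 94 and 8 of the 15 under quantile normalization, and 48 of the 126 and 40 of the 76.

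Signs were followed for the 8 members with the smallest unadjusted p, and not for the rest of the family. Among these members, signs turned for 5 uncalled differences, in 8 fits. With TGFb1 against beta6 null these were Tnfsf13b under quantile normalization (-0.33) and equal spreads (-0.264), and Ltbr with Xist (-0.624) and without beta6 null replicate 3 (-0.495 to 1.201 with 1 array left out). Against wild type they were Tnfsf11 without wild type replicate 3 (-0.216 to 1.571 with 1 array left out), Tnfrsf18 without the arrays with numbers apart (-0.02) and without TGFb1 replicate 5 (-0.02 to 0.193), and Tnfrsf8 without TGFb1 replicate 3 (-0.94 to 0.66). Of the markers called in any comparison, Sftpc turned with Xist (0.033, TGFb1 against beta6 null) and Krt19 under quantile normalization (-0.044, against wild type). The cause of these shifts was not tested. No paired analysis was possible because the labels pair no samples across groups.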
